A study of Mus musculus with 2 samples.

Results

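Head-to-head gene pairs are neighbouring genes on opposite strands that are read away from each other from starts lying close together, so that the DNA between them can serve as the promoter of both. The pairs described here were taken from the GENCODE M21 annotation alone: 2 protein-coding genes on autosomes, on opposite strands, transcribed away from each other, with gene starts at most 1000 bases apart and gene records that do not overlap. The gene start is the outermost 5′ end of the gene record, so a gene with several annotated starts was placed by its most upstream one. There were 734 such pairs, and their 1448 genes made up 6.96% of the 20807 autosomal protein-coding genes. The region measured for each pair ran from 250 bases inside the minus-strand gene to 250 bases inside the plus-strand gene. They were compared with 16315 single-gene starts, which are coding starts with no other gene start within 1000 bases, and with 860 coding starts whose divergent neighbour is a non-coding gene. Accessibility was measured by DNase-seq, which maps where the enzyme DNase I can cut because DNA is not covered by nucleosomes, in urinary bladders taken from male B6CASTF1/J mice, 36 days old. The strain is the F1 cross of C57BL/6J, a laboratory strain, with CAST/EiJ, a strain derived from wild mice. The series holds 1 group with 2 libraries, replicate 1 and replicate 2, which the labels give as separate biological replicates, and no treatment or other condition. Because there is no contrast between samples, each result is a level in both libraries, and no p-value is given.

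Divergent promoters of this kind are common in mammalian genomes. They usually lie in CpG islands, stretches rich in CG dinucleotides that escape methylation and carry open chromatin in most cell types, and rarely hold a TATA box. Their genes are known to include many that every cell uses, such as genes for DNA repair, mitochondrial proteins and ribosomal proteins. RNA was not measured here, so the direction of transcription rests on the annotation.

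The reference sequence between the starts is shown for 7 pairs on which the results below turn: a pair of mitochondrial translation genes known from textbooks (Mrps12 and Sars2), 5 of the 8 pairs with the highest peaks, and the histone pair that differed most between the libraries. Each is the plus strand of GRCm38 patch 6 as given by RefSeq, which shares coordinates with mm10, and runs from the first base after the minus-strand gene's start, named first, to the last base before the plus-strand gene's start. Capitals mark bases that lay under a footprint, a short stretch protected from cutting within an accessible site, in both libraries.
Mrps12 and Sars2: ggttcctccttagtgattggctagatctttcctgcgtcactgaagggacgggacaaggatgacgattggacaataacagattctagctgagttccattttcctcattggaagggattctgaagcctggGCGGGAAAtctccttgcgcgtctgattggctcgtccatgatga
Fbh1 and Ankrd16: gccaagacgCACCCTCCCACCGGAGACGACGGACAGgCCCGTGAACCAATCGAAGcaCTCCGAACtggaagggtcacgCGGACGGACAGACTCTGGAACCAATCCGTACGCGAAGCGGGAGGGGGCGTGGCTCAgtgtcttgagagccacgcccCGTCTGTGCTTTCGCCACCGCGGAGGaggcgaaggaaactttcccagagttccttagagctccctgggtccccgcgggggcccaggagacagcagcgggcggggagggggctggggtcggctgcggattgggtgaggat
Apaf1 and Ikbip: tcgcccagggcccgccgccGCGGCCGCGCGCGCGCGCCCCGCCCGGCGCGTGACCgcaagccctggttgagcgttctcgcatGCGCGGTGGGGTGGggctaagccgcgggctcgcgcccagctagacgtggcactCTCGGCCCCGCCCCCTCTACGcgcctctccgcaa
Rer1 and Morn1: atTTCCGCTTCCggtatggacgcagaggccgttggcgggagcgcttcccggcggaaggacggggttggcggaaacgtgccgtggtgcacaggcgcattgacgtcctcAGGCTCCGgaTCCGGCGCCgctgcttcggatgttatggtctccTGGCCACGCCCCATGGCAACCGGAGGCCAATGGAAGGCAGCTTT
Pdhx and Apip: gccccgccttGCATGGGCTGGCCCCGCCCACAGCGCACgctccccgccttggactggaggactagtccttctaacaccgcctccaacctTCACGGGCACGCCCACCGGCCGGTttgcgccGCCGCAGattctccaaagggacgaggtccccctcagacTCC
Nfya and Oard1: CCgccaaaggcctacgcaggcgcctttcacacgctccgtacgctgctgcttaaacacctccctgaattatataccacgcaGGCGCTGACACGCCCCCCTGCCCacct
Hist1h2bl and Hist1h2ai: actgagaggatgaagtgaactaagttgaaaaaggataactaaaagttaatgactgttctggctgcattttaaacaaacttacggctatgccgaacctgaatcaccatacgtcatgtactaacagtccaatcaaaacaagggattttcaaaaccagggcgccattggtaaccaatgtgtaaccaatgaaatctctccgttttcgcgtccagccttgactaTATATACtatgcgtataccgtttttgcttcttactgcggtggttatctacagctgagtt
The Mrps12 and Sars2 stretch is chr7:28741821-28741991, and 8 of its 171 bases were footprinted in both libraries. The Fbh1 and Ankrd16 stretch is chr2:11777583-11777875, with 135 of 293 bases footprinted in both. The Apaf1 and Ikbip stretch is chr10:91082771-91082939, with 71 of 169 bases. The Rer1 and Morn1 stretch, chr4:155086383-155086576, had 71 of 194 bases in capitals, and the Pdhx and Apip stretch, chr2:103073514-103073674, had 62 of 161. The Nfya and Oard1 stretch, chr17:48409907-48410013, had 25 of 107, and the histone stretch, chr13:21716144-21716421, had 7 of 278. The mouse hybrids also carry a CAST/EiJ copy of each region, whose letters can differ from those shown.

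The authors' shorter peak list held 38674 peaks in replicate 1 and 47661 in replicate 2, and the footprint lists held 140919 and 167442 entries. Peak heights are on a scale of each library's own, so heights were ranked within the library: a height percentile of 90 means that 90% of that library's peaks were lower. The absolute read depth is unknown. The urothelial markers had a peak within 500 bases of the start for 6 of 7 genes in replicate 1 and for 7 of 7 in replicate 2, including all 4 uroplakin genes listed, which encode the membrane plaque of the bladder lining. Of 5 smooth muscle markers, Myh11 and Mylk had such a peak in both libraries, while Acta2, Tagln and Des had none. None of 4 markers of liver, heart, brain and retina had one. Each library is whole tissue, so fewer cells of a type and less accessibility per cell cannot be told apart.

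Nearly all divergent coding pairs were accessible in the bladder. A peak overlapped 687 of the 734 pair regions in replicate 1 (93.6%, exact Clopper-Pearson 95% interval 91.6 to 95.3) and 692 in replicate 2 (94.3%, 92.3 to 95.8). Among single-gene starts, the background share was 43.7% in replicate 1 and 44.5% in replicate 2. In both libraries together, 684 pairs had a peak (93.2%), against 41.9% of single-gene starts. The mean over the libraries was 93.9% ± 0.482 for the pairs and 44.1% ± 0.611 for single-gene starts (SD, n = 2), so the gap was far larger than the spread between replicates. The coding starts with a non-coding divergent partner lay between these classes, at 77.3% and 78.3%. The intervals cover counting error only. Of the remaining pairs, 3 had a peak in replicate 1 alone, 8 in replicate 2 alone and 39 in neither.

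Open pairs also carried higher peaks. The highest peak of an open pair region had a median height of 3.75 in replicate 1 and 3.74 in replicate 2, against 2.74 and 2.60 at open single-gene starts. On the percentile scale the medians were 89.3 and 91.6 for the pairs and 78.7 and 82.9 for single-gene starts. Starts with a non-coding partner had median percentiles of 85.2 and 88.8. The highest peak stood among the top 10% of all peaks in 45.9% of open pairs in replicate 1 and in 56.5% in replicate 2, against 26.7% and 32.2% of open single-gene starts. The peaks of pairs were higher but hardly wider: the median width of the highest peak was 260 bases in each library for the pairs, and 260 and 257 bases for single-gene starts. Peak widths were a multiple of 20 bases for 59.6% and 57.3% of peaks, so small differences in width are not resolved. An open pair region held 6.27 footprints on average in replicate 1 and 6.21 in replicate 2, against 4.33 and 4.36 at single-gene starts, whose regions are shorter. Per 100 bases of peak, pairs had 1.92 and 1.93 footprints and single-gene starts 1.69 and 1.73. This measure counts every footprint of the region, also those outside its peaks, so it allows for region length only in part. An open region with no footprint made up 0.437% and 0.289% of the pairs, against 3.66% and 3.63% of single-gene starts.

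The libraries gave closely similar values for the pairs. Across the 684 pairs open in both, heights correlated at a Spearman rho of 0.916, a description over regions of the same genome and tissue, and the log2 ratio of the heights had an SD of 0.22. The highest peaks overlapped for 98.1% of these pairs, and the number of peaks was the same for 83.5%. Footprint counts were less alike, with a Spearman rho of 0.594.

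CpG content moved with the class, so the comparison was repeated within 4 classes of the CpG ratio, the observed number of CG dinucleotides over that expected from the C and G content. The median ratio was 0.825 in the pairs and 0.474 at single-gene starts, but among regions open in both libraries it was 0.835 and 0.802. With class limits taken from the pairs, so that each class held 183 or 184 of them, 98.9% of the pairs in class 2 were open in each library, against 84.3% and 84.2% of single-gene starts. In class 3 the shares were 98.4% and 98.9% for the pairs and 88.9% and 88.0% for single-gene starts, and in class 4, the highest, 98.4% in each library against 91.2% and 90.9%. Within these 3 classes the share open was 7.28 to 14.7 percentage points greater for the pairs, against 49.8 points without the split. In class 1, the lowest, 78.8% and 81.0% of pairs were open, against 21.7% and 23.2% of single-gene starts, but this class is not matched: its median CpG ratio was 0.615 for pairs and 0.256 for single-gene starts. The median height percentile of open pairs exceeded that of open single-gene starts by 20.8 points in class 1 and by 6.06, 4.60 and 5.12 points in classes 2, 3 and 4.

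**Figure D1:**
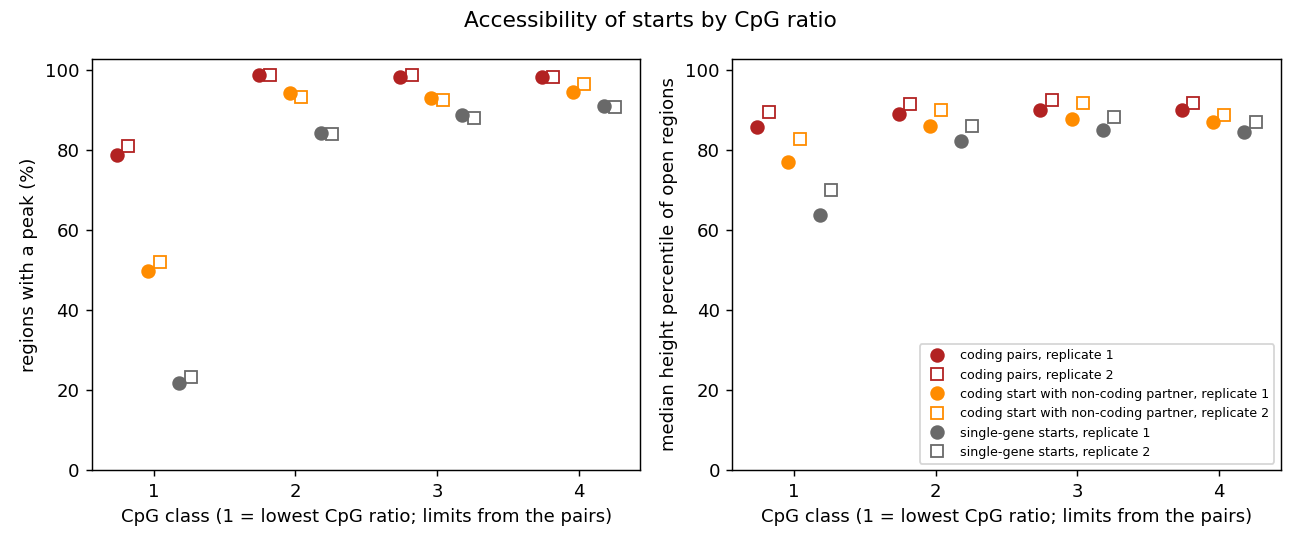
Share of regions with a peak (left, %) and median height percentile of the highest peak in open regions (right), by CpG class (1 lowest), for coding pairs (red), coding starts with a non-coding divergent partner (orange) and single-gene starts (grey); filled circles are replicate 1 and open squares replicate 2. The pairs lie above the single-gene starts in each class of both panels, with the widest gap in class 1, where 78.8% of pairs and 21.7% of single-gene starts were open in replicate 1.

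The starts of a pair lay a median of 128 bases apart (quartiles 66.2 and 240), and 306 pairs were within 100 bases of each other. Up to this distance a single accessible site usually took in both starts. With starts 1 to 100 bases apart, the highest peak covered both starts in 84.2% of open pairs in replicate 1 and 87.7% in replicate 2. The shares were 55.9% and 59.2% at 101 to 250 bases and 21.6% and 24.3% at 251 to 500 bases. At 501 to 1000 bases no highest peak covered both starts in replicate 1, and 1 did in replicate 2. Where the starts were this far apart, the highest peak covered 1 start in 68.4% and 78.0% of open pairs. The median width of the highest peak was 260 to 290 bases in every distance class. A peak narrower than the distance cannot cover both starts, and how far this accounts for the fall was not tested. At open single-gene starts the highest peak covered the start in 77.1% and 76.8%.

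**Figure D2:**
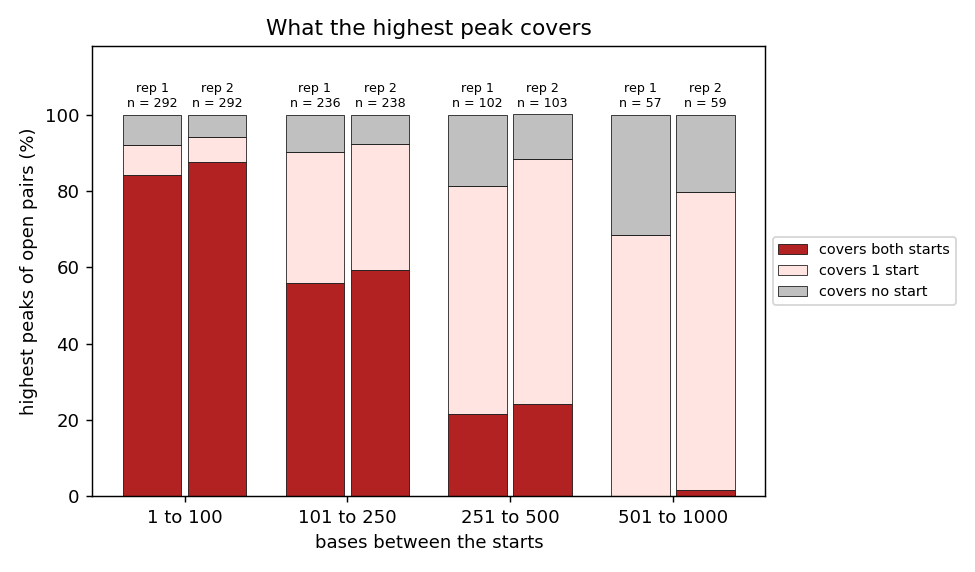
Share of open pairs (%) whose highest peak covered both starts (red), 1 start (pale) or no start (grey), by distance between the starts, with replicate 1 and replicate 2 side by side and the number of open pairs above each bar. Coverage of both starts falls off with distance in both libraries, with 84.2% and 87.7% at up to 100 bases and at most 1.69% beyond 500. A peak narrower than the distance cannot cover both starts.

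The number of peaks followed the same course. A single peak overlapped 74.2% and 76.0% of open pair regions, against 85.7% and 87.3% of open single-gene regions. Among the pairs the share was 86.0% and 87.0% at 1 to 100 bases, 78.0% and 79.4% at 101 to 250, 52.0% and 57.3% at 251 to 500, and 38.6% and 40.7% at 501 to 1000. Pair regions were longer than single-gene regions, at a median of 629 bases against 501, and lengthen with distance, so they can overlap more peaks. How far this accounts for these shares was not tested. Some listed peaks overlap or abut. Joining these left 1 block of accessible DNA in 78.7% and 81.4% of open pairs and in 90.5% and 91.3% of open single-gene regions. Height varied little with distance: the median percentile was 89.1 and 90.9 in the closest class, 91.8 and 94.1 at 251 to 500 bases and 87.4 and 90.4 in the widest. Mean footprints were 5.49 and 5.43 in the closest class, 6.34 and 6.39 at 101 to 250 bases, 7.45 and 7.34 at 251 to 500 and 7.86 and 7.34 in the widest, where regions are longer. Across the 684 pairs, distance had a Spearman rho of 0.0499 and 0.104 with height percentile and of 0.329 and 0.328 with footprints, while the CpG ratio had 0.158 and 0.0936 with height.

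**Figure D3:**
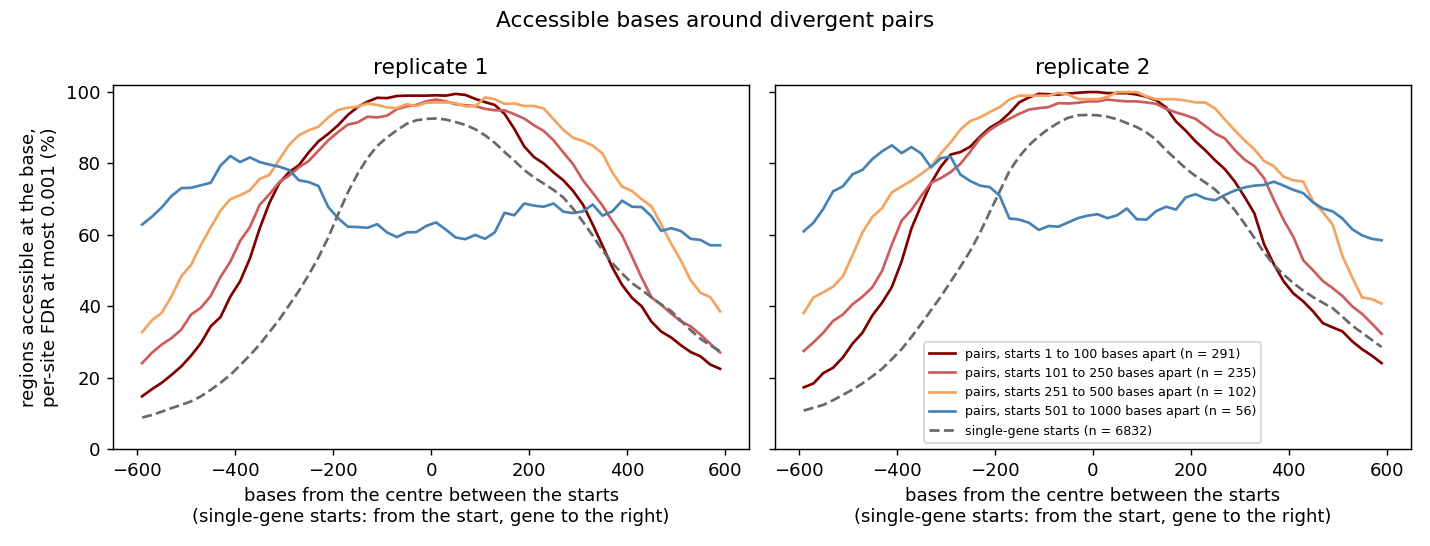
Share of regions (%) in which a base passed an FDR of 0.001 in the authors' per-site values, plotted in bases from the midpoint between the starts for pairs in 4 distance classes (solid lines) and from the start of single-gene regions, with the gene to the right (dashed), for regions open in both libraries. The accessible stretch widens with distance between the starts, and pairs 501 to 1000 bases apart show a dip at the centre, at 62.1% and 65.2% within 50 bases of it.

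Base by base, the per-site FDR that the authors deposited gave a view without peak boundaries, which matched that of the peaks only in part. Within 50 bases of the centre, 99.0% and 99.9% of pairs with starts 1 to 100 bases apart were accessible at an FDR of at most 0.001, and 96.8% and 98.2% of those 251 to 500 bases apart. In that latter class the shares 150 bases to either side were similar, at 95.9% to 99.0%. Its highest peak nevertheless covered both starts in only 21.6% and 24.3% of open pairs. At 501 to 1000 bases the share at the centre was 62.1% and 65.2%, and the maximum, 82.1% and 85.1%, lay 410 bases from the centre on the minus-strand gene's side. Single-gene starts reached 92.6% and 93.6%. Over 50% of the regions were accessible across 760 and 780 bases in the closest pairs, against 620 and 660 bases around single-gene starts. That stretch ran 380 bases into single genes in both libraries but only 240 and 280 bases upstream of them, whereas in the closest pairs it reached 380 and 400 bases to the left and 380 to the right.

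The midpoint of the highest peak lay between the starts in 57.5% of open pairs in replicate 1 and 60.3% in replicate 2, and on the gene side of a start in the rest. The share between the starts was 43.5% and 44.9% with starts 1 to 100 bases apart, where there is little room between them, 63.1% and 68.1% at 101 to 250 bases, 79.4% and 80.6% at 251 to 500 and 66.7% and 69.5% at 501 to 1000. Footprints were denser between the starts than inside the genes. Pairs held 1.42 and 1.47 footprints per 100 bases between the starts and 0.722 and 0.689 in the flanks inside the genes. Single-gene starts held 0.990 and 1.02 over the 250 bases upstream and 0.738 and 0.718 downstream. Most stretches between paired starts are shorter than 250 bases, so the densities are not like for like. Upstream of open single-gene starts the share accessible fell from 92.5% and 93.6% at 10 bases to 48.8% and 55.5% at 250 bases. The density between the starts differed by distance: it was 2.30 and 2.35 in pairs 1 to 100 bases apart, 1.77 and 1.92 at 101 to 250, 1.43 and 1.45 at 251 to 500 and 0.727 and 0.717 at 501 to 1000. The last was below the upstream density of single-gene starts, which was taken over a shorter stretch.

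Short consensus sequences of promoter factors were searched on both strands in windows of 300 bases centred between the starts, for pairs and single-gene starts open in both libraries. The single-gene windows were centred 64 bases upstream of the start. ETS factors, a large family of activators, bind around CCGGAAG, which was in 30.1% of pair windows (26.7 to 33.7, exact 95% interval) and in 17.9% of single-gene windows (17.0 to 18.8). This share was higher for pairs in each CpG class: 24.5% against 13.4% in class 1, then 27.6% against 20.5%, 33.5% against 19.2% and 33.7% against 20.2%. The ZBTB33 consensus TCTCGCGA, bound by the methyl-CpG-binding repressor Kaiso, was in 4.97% of pairs (3.47 to 6.88) and 2.14% of single-gene starts (1.81 to 2.51). The consensus AAGATGGCG of YY1, a zinc finger factor, was in 5.85% (4.21 to 7.88) and 3.15% (2.75 to 3.59). The CCAAT box, bound by NF-Y, was in 44.7% (41.0 to 48.6) and 38.0% (36.8 to 39.1). A pair window holds sequence next to 2 starts and a single-gene window next to 1, and how far that accounts for these shares was not tested.

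**Figure D4:**
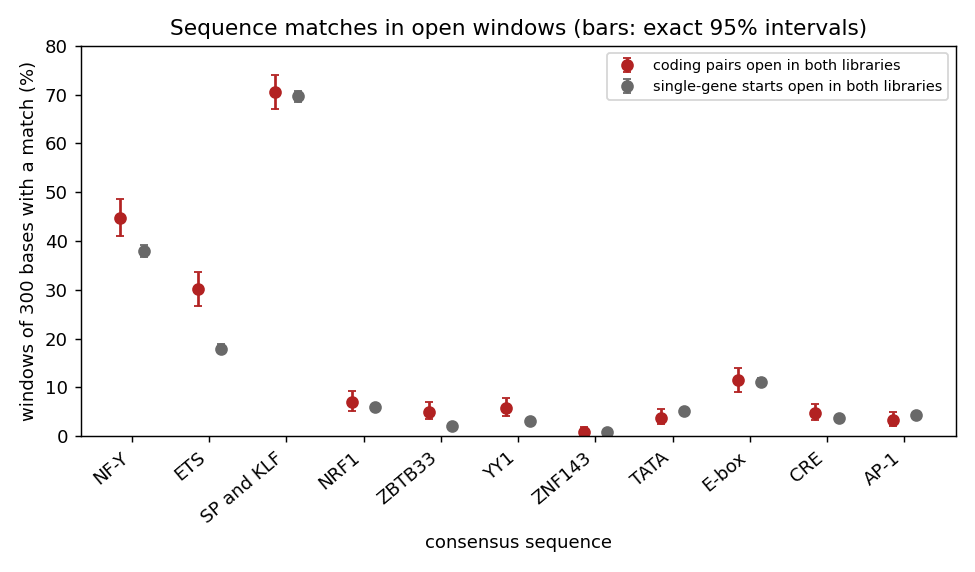
Share of windows of 300 bases with at least 1 match to each of 11 consensus sequences (%), for coding pairs (red, left of each couple, n = 684) and single-gene starts (grey, n = 6832) open in both libraries, with exact 95% binomial intervals that cover counting error only. The intervals of pairs and single-gene starts are apart for NF-Y, ETS, ZBTB33 and YY1 and overlap for the other sequences.

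Other consensus sequences differed less clearly between the classes. GGGCGG, the GC box of SP and KLF factors, was in 70.6% of pairs and 69.7% of single-gene starts, and the E-box CACGTG in 11.4% and 11.1%. The NRF1 consensus GCATGCGC, of a factor that drives nuclear genes for mitochondrial proteins, was in 7.02% and 5.88%. The cyclic AMP response element TGACGTCA, bound by CREB and ATF factors, was in 4.68% and 3.64%, and ACTACAATT, of ZNF143, in 0.877% and 0.820%. TATAAA was in 3.80% of pairs and 5.21% of single-gene starts, and the AP-1 sequence TGANTCA in 3.36% and 4.22%. Each of these 7 had overlapping intervals. Some rest on few matches, such as 26 pairs with TATAAA and 32 with TGACGTCA, so the overlap does not show equal shares. Over all windows, open or not, TATAAA was in 4.50% of pairs and 13.3% of single-gene starts, and CCGGAAG in 28.3% and 8.93%. A match is a description of the letters and does not show that a factor was bound.

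Footprints covered 19.9% and 21.3% of the bases of pair windows, against 15.8% and 16.8% in single-gene windows. A match counted as footprinted when a footprint overlapped it by at least 1 base, which is easier to meet than coverage of a base and easier for longer sequences. In pair windows a footprint overlapped 91.0% of the NRF1 matches in replicate 1 and 87.2% in replicate 2 (78 matches), against 80.7% and 82.2% at single-gene starts. For TGACGTCA the shares were 88.2% and 97.1% (34 matches), against 86.3% and 90.6%. GGGCGG had 64.4% and 64.3% of 1021 matches under a footprint, against 51.9% and 53.3% at single-gene starts. For TCTCGCGA and AAGATGGCG, both commoner in pairs, the shares footprinted were lower than at single-gene starts: 73.7% and 68.4% (57 matches) against 75.7% and 77.9%, and 34.1% and 43.9% (41 matches) against 43.1% and 45.0%. CCAAT, the shortest sequence searched, had 24.0% and 25.4% of 551 matches, against 19.7% and 24.0%. Pairs with the cyclic AMP element had a median height percentile of 95.4 and 95.5, against 89.2 and 91.6 for pairs without it (32 and 652 pairs), and pairs with GGGCGG had 90.3 and 92.9, against 86.4 and 89.3 without it. Pairs with CCGGAAG had 88.8 and 91.0, against 89.4 and 92.0 without.

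The printed stretches carried these sequences in different ways. Bases are counted from 1 at the left end of each. Between Mrps12 and Sars2 there were 4 CCAAT matches, all on the minus strand, beginning at bases 16, 65, 105 and 153, and none was under footprints of both libraries. A GGGCGG match beginning at base 127 was partly under footprints of both. The Fbh1 and Ankrd16 stretch had 3 CCAAT matches, and those beginning at bases 46 and 99 were under footprints of both libraries. Its CCAAT match at base 281 and a GGGCGG match at base 251 were not. Apaf1 and Ikbip had GGGCGG matches beginning at bases 39 and 143 on the minus strand, both footprinted in both libraries, and a GCATGCGC match at base 79 that was footprinted in part. Rer1 and Morn1 had a CCAAT match under footprints at base 177 and a CCGGAAG match at base 8 that was footprinted in part. Pdhx and Apip had GGGCGG under footprints at base 24. Between Nfya and Oard1 none of the 11 sequences was found. The histone stretch had CCAAT matches beginning at bases 126, 162, 170 and 181 and TGANTCA at base 97, none of them under footprints of both libraries.

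The highest peak of all pairs lay over Hjurp, which encodes the chaperone that loads the centromeric histone variant, and Trpm8, which encodes a cold-sensing channel of sensory neurons. Its height was 16.09 in replicate 1 and 17.88 in replicate 2, against at most 9.49 in any other of the 8 highest pairs, with starts 28 bases apart and a peak of 240 and 220 bases over both. It held only 3 and 5 footprints. The other 7 of the top 8 had heights between 7.27 and 9.49 and percentiles of at least 99.7 in both libraries. Cdc27, for a subunit of the anaphase-promoting complex, and Myl4, for an atrial myosin light chain, had 8.45 and 8.18. Fbh1, a DNA helicase gene, and Ankrd16 had 7.80 and 9.49, with a peak over the Fbh1 start but not the Ankrd16 start in both libraries. Apaf1, the core of the apoptosome, and Ikbip had 8.48 and 7.81. Rer1, for an endoplasmic reticulum retrieval receptor, and Morn1 had 7.60 and 8.10. Pdhx, a subunit of the pyruvate dehydrogenase complex, and Apip, a methionine salvage enzyme, had 7.27 and 8.46. Nfya, which encodes a subunit of the CCAAT-binding factor NF-Y, and Oard1 had 7.43 and 7.65.

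Of the 11 head-to-head pairs known from textbooks, 5 met the rule. Atm, the DNA damage kinase, and Npat, a coactivator of histone genes, start 307 bases apart and had 1 peak in each library, with heights of 4.61 and 5.31 and 8 and 11 footprints. In replicate 2 this peak of 380 bases covered both starts, and in replicate 1 it covered that of Npat alone. Mcm4, a subunit of the replicative helicase, and Prkdc, the catalytic subunit of the DNA-dependent protein kinase, start 466 bases apart. In replicate 1 they had separate peaks, of height 4.86 over the Mcm4 start and 3.63 over the Prkdc start, and in replicate 2 only the Mcm4 start had a peak, of height 5.64. Gart, a purine synthesis gene, and Son, a splicing factor gene, start 554 bases apart and had a peak over the Gart start of 3.39 and 3.82. In replicate 1 a peak of height 3.32 also lay inside Son, and in replicate 2 no other peak overlapped the region. Mrps12, for a mitochondrial ribosomal protein, and Sars2, the mitochondrial seryl-tRNA synthetase, had heights of 4.05 and 4.52. In replicate 1 the peak lay inside Sars2, past its start, and in replicate 2 the highest peak, of 480 bases, covered the Sars2 start. Another peak in replicate 2, of 280 bases and height 4.03, covered the whole stretch between the genes, beginning 1 base after the Mrps12 start. Col4a4 and Col4a3, basement membrane collagen chains, had no peak in the shorter list and heights of 0.52 and 0.43 in the longer one. The gene records of the other 6 textbook pairs overlap, for example by 21 bases for Col4a1 and Col4a2, 111 for Hspd1 and Hspe1, 163 for Surf1 and Surf2, 271 for Ppat and Paics and 341 for Sirt3 and Psmd13, so they were not members.

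Some pairs stood out by the form of their accessible site. In replicate 2 alone, a peak of 1060 bases covered both starts of Ttc9c and Hnrnpul2, 677 bases apart. Among pairs with such a peak in both libraries, the distance was greatest at Zfp672 and Sh3bp5l, 385 bases apart, with peaks of 520 and 540 bases. Next came Ranbp10 and Tsnaxip1 at 381, Aasdhppt and Kbtbd3 at 362, Tpcn1 and Iqcd at 343, and Zfp319 and Usb1 at 334 bases, the last with a peak of 840 bases in both libraries. Most footprints were counted at Tst and Mpst, which encode related sulfurtransferases, with 15 and 16, and at Ccdc47 and Ddx42, with 16 and 15. Both pairs had separate peaks over each start in both libraries, at 509 and 582 bases. Ttc9c and Hnrnpul2 had 15 and 15, Nlgn2 and Tmem256 13 and 14, and Rnf5 and Agpat1 14 and 13. Among the pairs with the longest summed peaks, Zbtb25 and Zbtb1, zinc finger genes 664 bases apart, had a peak over each start at height percentiles of 70.0 to 70.7 in replicate 1 and 69.9 to 70.8 in replicate 2. Dok1 and Loxl3 had a highest peak of 1020 bases in replicate 1 and 480 in replicate 2, Fbxo9 and Ick 1240 and 300, and Cep57l1 and Sesn1 720 and 700. Fiz1 and Gm44973, 799 bases apart, had 3 peaks in replicate 1 and 4 in replicate 2.

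Gene groups are read against the 6.96% of all autosomal coding genes that lie in pairs and the 93.2% of all pairs that were open in both libraries, and no group was tested. Most groups were formed by gene symbol, such as Nduf, Sdh, Uqcr, Cox and Atp5 for oxidative phosphorylation and Zfp for zinc finger genes. DNA repair and replication genes and bladder genes were fixed lists. A symbol can take in related genes and miss others, such as the zinc finger gene Zbtb1. Of 78 mitochondrial ribosomal genes 23.1% were in pairs, as were 22.1% of 104 oxidative phosphorylation genes and 11.2% of 80 cytosolic ribosomal genes. All 18 pairs with a mitochondrial ribosomal gene were open in both libraries, with median height percentiles of 89.8 and 93.9, against 32 of 38 single-gene starts of that group, with 82.3 and 84.6. The highest were Klc4 and Mrpl2, with heights of 6.43 and 6.13, Mrpl49 and Fau with 6.27 and 5.60, and Mrps18b and Ppp1r10 with 4.80 and 4.74. All 23 pairs with an oxidative phosphorylation gene were open, led by Tepsin and Ndufaf8 with 6.85 and 8.41, Rps28 and Ndufa7 with 6.86 and 6.46, and Wdr4 and Ndufv3 with 6.45 and 5.04, against 43 of 55 single-gene starts. Their median percentiles hardly differed, at 88.7 and 92.3 for pairs and 89.0 and 91.7 for single-gene starts. Of 9 pairs with a cytosolic ribosomal gene 8 were open, against 38 of 44 single-gene starts, and Med22 and Rpl7a had heights of 7.75 and 7.31. DNA repair and replication genes were in pairs for 45 of 150 genes listed, or 30.0%. Of their 46 pairs 45 were open in both libraries, against 63 of 72 single-gene starts. Lig4, the ligase of end joining, and Abhd13 had 6.34 and 6.52, Ccnb1ip1 and Parp2, a poly-ADP-ribose polymerase gene, had 5.73 and 6.97, and Xpc, the nucleotide excision repair sensor, and Lsm3 had 5.93 and 6.21.

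In smaller groups the shares were near that of all pairs. All 7 proteasome pairs were open in both libraries, against 28 of 34 single-gene starts, and the pairs' median percentiles of 82.3 and 90.4 were below the 86.9 and 90.7 of single-gene starts. The highest were Ftsj3 and Psmc5 at 6.01 and 5.81, Psmb1 and Tbp at 4.67 and 4.30, and Mrpl32 and Psma2 at 4.22 and 4.82. Of 12 chaperone pairs 11 were open in both libraries, against 30 of 50 single-gene starts, led by Dnajb4 and Fubp1 at 5.57 and 7.09, and Tecr and Dnajb1 had 5.87 and 6.12. All 5 pairs with an aminoacyl-tRNA synthetase were open, against 21 of 23 single-gene starts, and all 6 with a translation initiation factor, against 29 of 33, with median percentiles of 89.1 and 88.9 for initiation factor pairs and 88.6 and 92.2 for their single-gene starts. Among them were S100pbp and Yars at 3.89 and 3.90, and Atp6v1d and Eif2s1 at 4.36 and 4.71. Zinc finger genes were in pairs for 5.19% of 385 genes, and of their 18 pairs 16 were open in both libraries, against 209 of 291 single-gene starts, and Zfp654 and Cggbp1 had 6.53 and 7.42. Of 74 genes typical of bladder cell types 1 was in a divergent coding pair, or 1.35%, a difference from the 6.96% of all genes that was not tested. It was Pecam1, the endothelial adhesion molecule. Pecam1 starts 598 bases from Milr1, a mast cell receptor gene, and the region had no peak.

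Histone pairs had the lowest open share of the groups with at least 5 pairs. Of 14 pairs with a histone gene, 13 of them histone to histone, 8 had a peak in both libraries, 1 in replicate 1 alone, 2 in replicate 2 alone and 3 in neither, although their median CpG ratio was 0.902. Of 19 single-gene starts of histone genes, 12 were open in both libraries, against 41.9% of all single-gene starts. The open share was thus below that of the whole class for histone pairs and above it for histone single-gene starts. The median height percentile of the open histone pairs was 55.3 in replicate 1 and 72.6 in replicate 2, against 82.0 and 83.9 for the single-gene starts of histone genes. Of the 5 pairs with the largest difference in percentile between the libraries, 4 were histone pairs. Hist1h2bl and Hist1h2ai had a height of 0.97 in replicate 1, at percentile 26.1, and 1.88 in replicate 2, at percentile 72.6. Hist1h2an and Hist1h2bp had heights of 1.61 and 3.09, at percentiles 55.3 and 87.2. Hist1h2ac and Hist1h2bc had 1.34 and 1.88, at 44.8 and 72.6, and Hist1h2ah and Hist1h2bk had 1.47 and 2.03, at 50.6 and 75.3. The remaining pair was Stap2 and Mpnd, with 0.86 and 1.21, at 19.1 and 53.1. All 5 were higher in replicate 2 in both height and percentile, but part of the percentile gap comes from the ranking: the list of replicate 2 is longer and its median height lower, at 1.15 against 1.46 in replicate 1, so an equal height ranks higher there. Histone genes of a family are near-identical copies, so the placing of their reads is uncertain, and its part in these values was not tested.

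**Figure D5:**
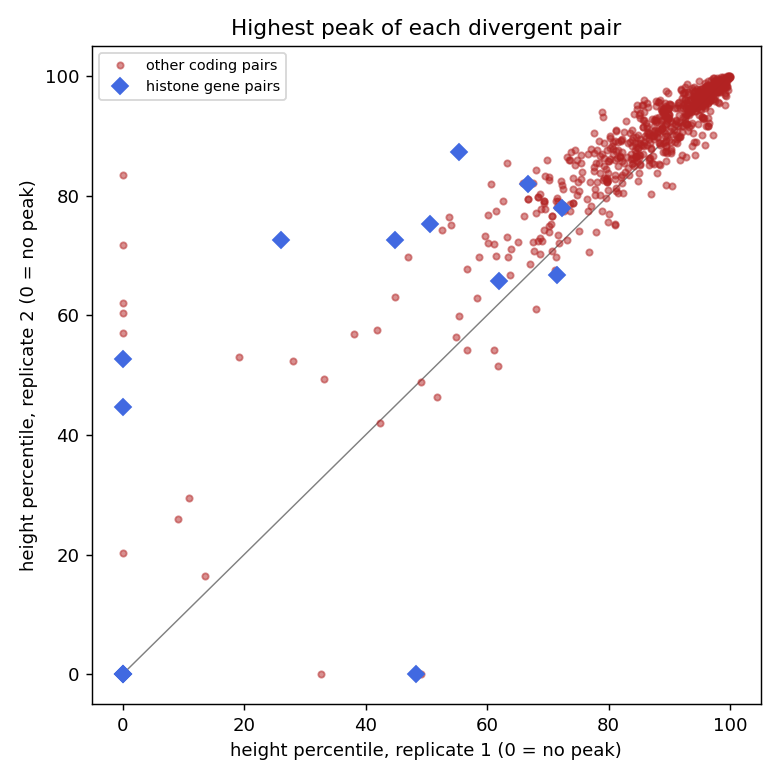
Height percentile of the highest peak of each of the 734 pairs in replicate 1 (x axis) and replicate 2 (y axis), with 0 for pairs without a peak and a grey line of equality; blue diamonds are the 14 pairs with a histone gene and red circles the other pairs. Most pairs crowd into the upper right corner, while the histone pairs lie below percentile 90 in both libraries; an equal height ranks higher in replicate 2, so points tend to lie above the line.

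The 39 pairs with no peak in either library had a median CpG ratio of 0.375, and 33 of them were in CpG class 1. No base of the region had a per-site FDR of at most 0.05 in either library in 29 of them. In the longer peak list 6 had a peak in replicate 1, 7 in replicate 2 and 4 in both. The following were chosen as examples after their values were seen. Several of these pairs hold genes known for use in other organs, such as Tssk3, a testis kinase gene, with Fam229a, Kirrel2 with Nphs1, which encodes nephrin of the kidney filter, and Duox2 with Duoxa2, which encode an oxidase and its maturation factor. In the longer list of replicate 1, Tssk3 and Fam229a had a peak of height 0.65 and Duox2 and Duoxa2 of 0.87. Kirrel2 and Nphs1 had none in either library. Other pairs of the 39 hold genes used in every cell, whose gene record begins at an annotated start upstream of another. In 14 of the 39 pairs, through 16 genes, a gene had a peak in both libraries within 250 bases of another of its own annotated starts, outside the region. This was 35.9% of these pairs, against 10.5% of the 8752 single-gene starts without a peak in either library. A pair could meet this through either of its genes, so the shares are not like for like. Rps2, a ribosomal protein gene paired with Rnf151, had no peak at the start of its record and a peak at percentiles 92.3 and 94.1 at another start. Rad51c, a homologous recombination gene paired with Tex14, had one at 91.2 and 94.9, and its pair region, though without a peak, held 273 and 358 bases with a listed FDR of at most 0.05. Ccnt1, the cyclin of the elongation factor P-TEFb, had one at 99.0 and 99.6, Dgcr2 at 99.2 and 98.8, and Trim28, a corepressor of zinc finger factors, at 93.8 and 90.8.

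Near the limit of the rule the values did not break off. Of 10 pairs over 900 and up to 1000 bases apart, 9 and 8 were open, with median height percentiles of 86.7 and 89.7. Of 11 pairs over 1000 and up to 1100 bases apart, just outside the limit, 10 and 9 were open, with 84.5 and 89.4.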

How the data were processed

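DNase-seq of the urinary bladder gave 2 libraries, grouped by the labels as 2 biological replicates of 1 group. Per the labels and the deposited text, the authors called peaks and footprints separately in each library from filtered alignments to mm10. Which aligner and callers were used is not given in the sources used here. Peak heights are the signal values of the deposited lists. Their scale is not stated, and they come in steps of 0.0113 for replicate 1 and 0.00893 for replicate 2 (100% of low heights within 0.05 of a step), so they were read as scaled per library. The per-site FDR that the authors deposited is an adjusted p-value, listed up to 0.05. Other numeric columns hold 1 constant value and were not used. Reads of the CAST/EiJ genome were placed on a C57BL/6J reference.

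Pairs, single-gene starts and regions came from GENCODE M21. A region was open when a peak of the authors' shorter list overlapped it by at least 1 base. A footprint was counted where its midpoint lay in the region. The CpG ratio and consensus matches came from the GRCm38 patch 6 sequence. Python 3.11.15 was used, with numpy 2.4.6, pandas 2.3.3, scipy 1.17.1 and pysam 0.24.0, after the steps were tested on simulated data. Values were computed in each library, with no test across samples and none across regions, which are not replicates. Intervals are exact Clopper-Pearson 95% intervals. The members, gene groups and consensus sequences were chosen with earlier results of these data known. Named pairs are the textbook pairs, the 8 highest, and the 5 with most footprints, longest summed peaks and largest difference between libraries. Also named are the 5 with the greatest distance under 1 peak in both libraries. Up to 3 highest and 3 closed pairs per gene group were added. Not every one of these is reported. Alternatives were the longer peak list, the higher 50% of peaks, the midpoint as overlap, flanks of 100 and 500 bases, a distance limit of 500, other single-gene starts and regions, windows of 200 bases, CpG classes and each library alone.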

Additional observations from a re-analysis of the deposited data

How the results depend on the processing

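Values here are pairs minus single-gene starts unless stated, as means of both libraries. Of 84 alternatives 40 stayed within 1 SD of the libraries (for the counts of consensus sequences, within 1.5 times), 43 moved further and 1 changed sign. The 40 include those that leave out 1 library. With 2 libraries these always stay within 1 SD of the mean, so they say nothing about stability. The share of regions with a peak, 49.8 percentage points greater for the pairs, was 46.3 with the longer peak list, 55.7 with the higher 50% of peaks, 51.6 with the peak midpoint in the region, 51.7 and 48.2 with flanks of 100 and 500 bases, 50.7 with starts at most 500 bases apart, 47.0 with single-gene starts that have no other coding start within 1000 bases, and 49.4 with single-gene regions extended upstream. In CpG classes 1 to 4 it was 57.4, 14.7, 10.2 and 7.28. The height percentile difference, 9.65 points, was 7.78 with the longer list and 20.8, 6.06, 4.60 and 5.12 in the classes. The footprint difference, 1.90 per region, was 2.17 with the longer list, 1.55 with the higher 50%, 1.78 with the midpoint, 2.34 and 1.77 with flanks of 100 and 500 bases, 1.77 with the distance limit of 500, 1.66 with extended single-gene regions, 0.216 per 100 bases of peak, and 2.51, 1.64, 1.60 and 1.29 in the classes. The share of open pairs with 1 peak, 75.1%, was 81.1% with the higher 50%, 83.5% with the midpoint, 84.6% and 61.0% with flanks of 100 and 500 bases, 78.4% with the distance limit of 500 and 80.1% with touching peaks joined.

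The width difference, 1.5 bases, was no larger than the spread of the libraries. It was 10 bases with the longer list and with the higher 50%, 13.0 with the midpoint and 6.00 with flanks of 500 bases. In the classes it was 30, 10, 20 and -2.00 bases, so it changed sign in class 4. The causes of these shifts were not tested. Of 11 consensus sequences 9 were in a larger share of pairs, and 4 were in CpG class 3. With either library left out, the results ran from 49.7 to 49.9 points, 8.75 to 10.5 percentile points, 0 to 3 bases and 1.85 to 1.94 footprints, and from 74.2% to 76.0% for pairs with 1 peak and 57.5% to 60.3% for highest peaks centred between the starts. Joining touching peaks, and leaving out the 40 pairs that share a gene, were chosen after seeing the data, and leaving out those pairs moved none of 5 results beyond 1 SD. No paired analysis was possible because the series holds 1 group. Absolute depth is unknown, so a region without a peak may hold accessibility below detection.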
